A study of Mus musculus with 16 samples.

Results

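The pituitary response of Esr1Nkx2-1Cre mutant female mice to a high-fat diet (HFD) was measured by bulk RNA-seq against mutants kept on standard diet (SD, called chow in the labels). By genotype and diet label alone, 8 of the 16 mice of the series enter this comparison. They are 4 mutants on HFD (P339, P341, P387 and P388) and 4 mutants on SD (P357, P381, P382 and P384), and values are listed below in that order of mice within a diet. The other 8 mice, 4 controls on each diet, carry floxed *Esr1* without deletion and are used only to set beside the mutants. All mice were females of 27 weeks on a mixed CD-1;129P2 background, and HFD had been given for 17 weeks. In the mutants, a Cre recombinase driven by *Nkx2-1* regulatory sequence removes part of *Esr1*, the gene for oestrogen receptor alpha, from cells that have expressed *Nkx2-1*. Such cells include hypothalamic neurons and the posterior lobe of the pituitary, so the deletion is not confined to the gland that was profiled, and the hormone cells of the anterior lobe are not its main target. The line is studied for the bone mass of its females, and the comparison asks which pituitary genes differ with the diet in them.

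The anterior lobe of the pituitary holds lactotrophs, somatotrophs, gonadotrophs, thyrotrophs and corticotrophs, which release prolactin, growth hormone, the gonadotropins, thyrotropin and adrenocorticotropin under control of the hypothalamus. Melanotrophs of the intermediate lobe cleave the same precursor as corticotrophs, the product of *Pomc*, to melanocyte-stimulating hormone, and the posterior lobe holds axon endings and glia-like pituicytes. Long-term fat feeding is known to change signals that reach these cells, among them leptin, insulin and glucocorticoids, and it also shifts feeding times and clock gene rhythms in several tissues. Markers of these cell types were found in 7 of the 8 mutant libraries, as a whole pituitary would give, while in the library of P357 those of the intermediate and posterior lobes were far lower.

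Each library gives 1 normalized signal for each gene. A gene entered the tests if its mean across the 16 mice reached 1, which left 14345 genes. Differences are given as log2 changes, HFD minus SD, of log2(value + 0.5), a scale that understates the change of genes with low values. In genes with 1 annotated transcript, 3 reads were estimated to be worth 0.14 to 0.203 units per kilobase of effective length, and values this low rest on very few reads. The library of P357, a mutant on SD, stood apart from the other 7 mutants. It listed 533 genes at 0, against 96 to 206 in the others, and its mitochondrially encoded genes summed to 119409, against 35296 to 49368. All its values summed to 1335782, against 946056 to 1076541, so a high value in P357 need not be a high share of its library. Its mean log2 value over the markers of melanotrophs and posterior lobe was 1.62, against 3.82 to 4.27 in the other 7 mutants. Results are therefore given with and without P357. A control on HFD, P392, also had a low lobe score of 2.28, against 3.70 to 4.39 in the other 7 controls. Mice from P381 on make up 3 of the 4 mutants on SD and 2 of the 4 on HFD, and the change within this range of animal numbers is given where it bears on a gene. In controls, P356, P358 and P359 on SD lie below this range, while P383 on SD and all mice on HFD lie within it. Diet and number range can therefore hardly be told apart in controls, which bears on each control change and each interaction.

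In mutants, HFD and SD separated few genes. At an adjusted p under 0.05, 0 of 14345 genes were called (limma with Benjamini-Hochberg adjustment), and 717 had an unadjusted p under 0.05. The smallest adjusted p was 0.151, shared by *Plat* and *Gm11331*. All 4 mutants on HFD lay above all 4 on SD in 269 genes, 1.88% of those tested, and below them in 206, or 1.44%. For full separation of 4 mice from 4, the exact permutation test gives a two-sided p of 0.0286. With no diet effect, 1 of the 70 arrangements of mice gives full separation in each direction. The 1.44% lower on HFD was close to that rate, and the 1.88% higher was somewhat above it. The 717 genes were also about as many as a threshold of 0.05 passes by chance. Separation alone therefore does not mark a gene as changed by the diet. Without P357 the separated genes were 438 higher (3.05%) and 397 lower (2.77%), a comparison of 4 mice with 3 that fewer values can separate more easily. These shares were also close to the rate that chance gives for that comparison. In controls, 180 genes (1.25%) lay higher and 195 (1.36%) lower on HFD with no overlap. In most of the separated genes the change was small, and its size was above 1 on the log2 scale in 18 of the 269 and 18 of the 206.

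Among genes lower on HFD, *Plat* had the smallest p. It encodes tissue plasminogen activator, the secreted protease that turns plasminogen into plasmin (ENSMUSG00000031538, GRCm38 chromosome 8, 22757727 to 22782844). Its normalized expression was 42.4, 33.9, 33.2 and 32.2 in mutants on SD and 24.2, 23.1, 23.8 and 25.1 in mutants on HFD. The groups did not overlap, and the 4 values on HFD lay close together. The log2 change was -0.54 (standard error, SE, 0.09, unadjusted p = 2.11e-05, limma adjusted p = 0.151), and the means differed 1.47-fold. Without P357 the change was -0.45, and among mice from P381 on it was -0.43. Controls showed the same order at lower levels, with 24.7 to 26.7 on SD and 19.1 to 20.2 on HFD, also without overlap. Their log2 change was -0.40, and the interaction of genotype and diet, the difference between the 2 changes, was -0.14 (adjusted p = 0.924 from limma). On HFD, *Plat* in mutants lay at 23.1 to 25.1, beside 24.7 to 26.7 in controls on SD.

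*Dbi* encodes the acyl-CoA-binding protein, which carries long-chain acyl-CoA esters and is also the precursor of peptides that bind the GABA-A receptor (ENSMUSG00000026385, chromosome 1, 120113280 to 120121078). It was 98.1, 90, 81.7 and 100.3 in mutants on SD and 55.6, 59.0, 48.7 and 63.3 on HFD. Every mouse on HFD lay below every mouse on SD. The log2 change was -0.71 (SE 0.13, limma adjusted p = 0.216) and -0.68 without P357. In controls the groups overlapped, at 49.0 to 73.9 on SD and 52.0 to 64.9 on HFD, with a change of -0.02. The difference between genotypes in this change had an unadjusted p of 0.00145 and an adjusted p of 0.924 (limma). A processed copy of *Dbi*, *Gm12222*, shares its sequence, so some reads could be split between them.

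*Tk1*, the gene of cytosolic thymidine kinase, which salvages thymidine in dividing cells, had 11.5, 9.76, 13.1 and 9.65 on SD and 6.42, 5.13, 7.12 and 5.89 on HFD. The mice did not overlap, and the mean was 1.79 times higher on SD. The log2 change was -0.79 (SE 0.15, limma adjusted p = 0.275), and controls had 5.93 to 8.43 on SD and 6.67 to 8.74 on HFD. Mutants on SD held the 4 highest values of the 16 mice. Of 22 tested cell cycle genes, 0 were separated between the diets, 11 had a positive and 11 a negative change, and the median was -0.02. *Tyms*, the neighbouring enzyme of thymidylate supply, had a change of 0.35 (unadjusted p = 0.064, limma), opposite in sign to *Tk1*. *Tk1* overlaps *Afmid* on the opposite strand and shares stretches of sequence with 246 genes, and *Tyms* shares such stretches with 208 genes. Whether the quantification used strand is not given in the sources used here.

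*Zfyve1* encodes DFCP1, a protein of lipid droplets and of omegasomes in autophagy, and it was 41.0, 42.2, 33.8 and 28.7 on SD and 21.5, 17.3, 24.5 and 18.5 on HFD. The lowest mouse on SD lay above the highest on HFD. The fitted change was -0.81 (SE 0.18, limma adjusted p = 0.432), against -0.13 in controls, and *Zfyve1* shares stretches of sequence with 406 genes. *Acot1*, a cytosolic acyl-CoA thioesterase and a target of PPAR alpha, was 8.49, 7.28, 6.78 and 5.30 on SD and 2.88, 2.66, 4.07 and 2.01 on HFD. No mouse on HFD reached the lowest on SD, and the log2 change was -1.15 (SE 0.25, limma adjusted p = 0.432). Controls had 3.13 to 6.97 on SD and 1.995 to 3.56 on HFD, a change of -0.71 with overlap. *Acot1* shares sequence with *Acot2*, *Acot3*, *Acot5* and *Acot6*, so its value is uncertain. *Thrsp*, which encodes Spot 14, a regulator of lipogenesis, was 26.9, 19.2, 17.6 and 20.8 on SD and 14.2, 13.2, 15.0 and 16.3 on HFD, lower in each mouse on HFD. Its log2 change was -0.50 (SE 0.18, limma adjusted p = 0.813) and -0.38 without P357, and controls had a change of 0.01.

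The other genes named among those lower on HFD have less related roles. *Tex26*, a testis-expressed gene of little-known function, was 10.6, 7.79, 8.50 and 8.69 on SD and 5.71, 1.59, 4.67 and 4.27 on HFD. HFD differed from SD by -1.14 on the log2 scale (SE 0.28), and the groups did not overlap. *Rflnb*, which encodes the filamin-binding protein refilin B, was 18.2 to 20.0 on SD and 14.5 to 16.8 on HFD, with a change of -0.32, and it was also separated in controls (change -0.31). The zinc finger gene *Zfp61* (-0.32), the glycosyltransferase gene *B4galnt4* (-0.40), *Nudt6* (-0.51), *Pigyl* (-0.45) and the dynein light chain gene *Dynlt1f* (-0.52) were each separated in mutants and had adjusted p of 0.432 to 0.813 (limma). *Nudt6* lies antisense to *Fgf2*, and *Dynlt1f* belongs to a cluster of near copies with 65 genes sharing sequence, so both values are uncertain.

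**Figure D1:**
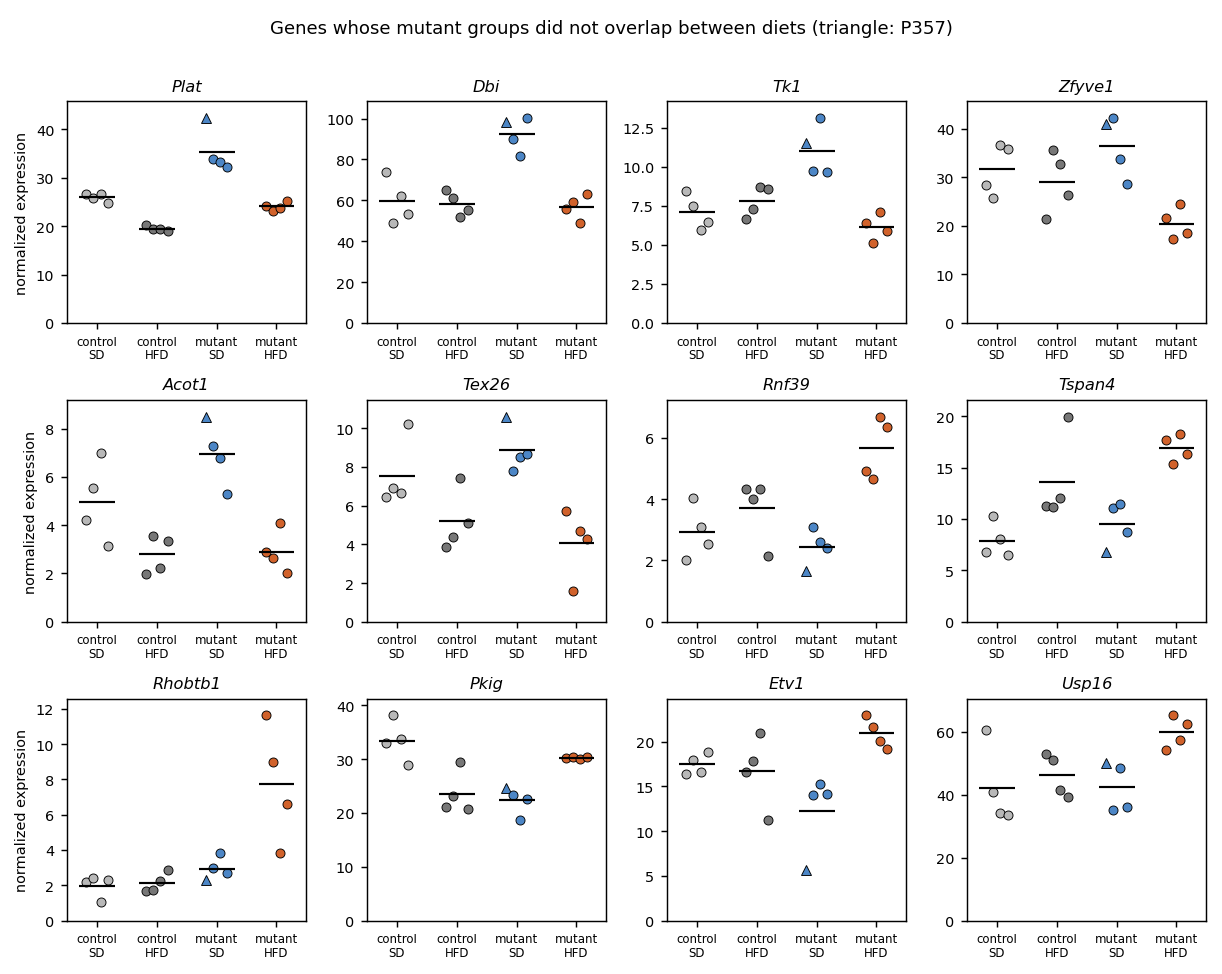
Normalized expression of 12 genes in each mouse (y axes from 0) by genotype and diet, with 1 point per mouse, a triangle for P357 and a line at the group mean. In every panel the 4 mutants on HFD lie entirely above or below the 4 mutants on SD, while most control groups overlap. *Plat* runs from 23.1 to 25.1 in mutants on HFD and from 32.2 to 42.4 in mutants on SD.

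Among genes higher on HFD, *Rnf39* had the smallest unadjusted p among the named genes. It encodes a RING finger protein of the major histocompatibility region (ENSMUSG00000036492, chromosome 17, 36942918 to 36947986), and it was 1.65, 3.11, 2.60 and 2.42 on SD and 4.93, 4.65, 6.69 and 6.37 on HFD. The lowest mouse on HFD lay above the highest on SD. This gave a log2 change of 1.07 (SE 0.24, limma adjusted p = 0.498), a 2.31-fold difference of means. In controls it was 2.02 to 4.04 on SD and 2.15 to 4.35 on HFD, with a change of 0.29.

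*Rhobtb1*, whose product acts with the cullin 3 ubiquitin ligase, was 2.29, 2.96, 3.81 and 2.67 on SD and 11.6, 8.98, 3.82 and 6.58 on HFD. The groups were barely separated, since P387 on HFD, at 3.82, met P382 on SD, at 3.81. A log2 change of 1.18 was fitted (SE 0.29, limma adjusted p = 0.813). It was 0.61 among mice from P381 on, where the 2 highest mice, P339 and P341, are left out. All 8 controls lay between 1.05 and 2.89.

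*Tspan4*, a tetraspanin of migrasomes, was 6.78, 11.1, 11.5 and 8.69 on SD and 17.7, 15.4, 18.3 and 16.3 on HFD, with no overlap. On the log2 scale the change was 0.82 (SE 0.20, limma adjusted p = 0.813). Controls were separated in the same direction, at 6.502 to 10.3 on SD and 11.1 to 20.0 on HFD, with a change of 0.73. *Tspan4* overlaps *Chid1* on the opposite strand. *Mettl7a1*, a lipid droplet methyltransferase gene that shares sequence with *Mettl7a2* and *Mettl7a3*, was 34.3 to 46.6 on SD and 56.7 to 67.0 on HFD (change 0.62, and 0.50 in controls). *Acsl4*, which activates arachidonic acid for phospholipids, was 5.396 to 8.76 on SD and 9.39 to 11.8 on HFD. Its change was 0.62 in mutants and -0.23 in controls, and the difference had an unadjusted p of 0.00592 and an adjusted p of 0.924 (limma).

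*Etv1*, an ETS family transcription factor gene, was 5.70, 14.1, 15.2 and 14.2 on SD and 23.0, 21.7, 20.1 and 19.2 on HFD. P357 was far below the other 3 mice on SD, and these 3 still lay below all 4 on HFD. Its change came to 0.84 (SE 0.24) with P357 and 0.52 without it. *Usp16*, a deubiquitinase of histone H2A, was 49.9, 35.0, 48.3 and 35.9 on SD and 54.0, 65.1, 57.2 and 62.5 on HFD (change 0.51). *Chd2*, a chromatin remodeller, had a change of 0.37, *Mob4* 0.36 and *Scoc*, an autophagy gene of the Golgi, 0.27. Each was separated between the diets, and each had an adjusted p of 0.813 (limma). *Mob4* shares stretches of sequence with 416 genes.

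*Pkig*, the gene of protein kinase inhibitor gamma, which holds the catalytic subunit of protein kinase A inactive, had the smallest interaction p among the named genes. In mutants it was 24.7, 23.3, 18.8 and 22.6 on SD and 30.2, 30.3, 29.9 and 30.3 on HFD, and the 4 values on HFD were nearly equal. The fitted change was 0.43 (SE 0.12, unadjusted p = 0.00249, limma). Controls had the opposite sign with overlap, at 32.9, 38.1, 33.7 and 29.0 on SD and 21.1, 23.1, 29.4 and 20.6 on HFD, with a change of -0.50. The interaction was 0.94 (unadjusted p = 5.47e-05, adjusted p = 0.261 from limma), 0.99 without P357 and 0.88 without P392. *Tk1* had an interaction of -0.93 (adjusted p = 0.846 from limma).

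In 2 further named genes the groups were separated in opposite directions in the 2 genotypes. *Pcdh1*, a protocadherin gene, was 13.4 to 17.0 on SD and 17.8 to 19.6 on HFD in mutants, but 18.7 to 25.5 on SD and 14.3 to 17.0 on HFD in controls. The interaction was 0.66 (unadjusted p = 0.000833, adjusted p = 0.924 from limma). *Tubb2b*, a neuronal beta-tubulin gene that shares sequence with *Tubb2a*, was 13.8 to 16.2 on SD and 11.6 to 13.2 on HFD in mutants, and 4.50 to 7.78 and 8.44 to 14.5 in controls. Its interaction was -0.94 (unadjusted p = 0.00115, adjusted p = 0.924 from limma). Over all genes the interaction was past the threshold in 0, and 602 genes, or 4.20%, had an unadjusted p under 0.05. *Dbi*, *Tk1*, *Acsl4*, *Pkig*, *Pcdh1* and *Tubb2b* were named for their separation in these mutants or for the interaction itself. Choosing genes by their change in mutants also favours a large interaction. Of the 269 higher and 206 lower genes, 54 and 51 had an unadjusted interaction p under 0.05 (limma). The small unadjusted p of the named genes therefore do not show a response specific to a genotype.

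Mutants and controls were fed the same diets and share no mouse, and their changes are set side by side. Of the 269 genes higher on HFD in mutants, 159 (59.1%) had a positive change in controls, against 50.3% of all tested genes. Of the 206 lower genes, 124 (60.2%) had a negative change in controls, against 49.7% of all tested genes. The median change of these genes in controls was 0.04 and -0.04, beside the 0.38 and -0.39 that they were selected for in mutants. Separated in the same direction in both genotypes were 7 higher genes (*Fam76a*, *Fyb2*, *Gm20530*, *March7*, *Pdxk*, *Per2* and *Tspan4*), which is 2.60% of the mutant list, beside 1.25% of all tested genes, and 3.89% of the control list, beside 1.88%. Lower in both were 9 genes (*Bmp2*, *Borcs8*, *Gtf2h3*, *Map6*, *Plat*, *Prr22*, *Rflnb*, *Tha1* and *Tpcn1*), or 4.37% of the mutant list, beside 1.36% of all tested genes, and 4.62% of the control list, beside 1.44%. Separated in opposite directions were *Astn1* and *Pcdh1*, higher in mutants (0.743% of the 269, beside 1.36% of all tested genes lower in controls). The others were *Gen1*, *Gm45246*, *Pglyrp1* and *Tubb2b*, lower in mutants (1.94% of the 206, beside 1.25% of all tested genes higher in controls).

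**Figure D2:**
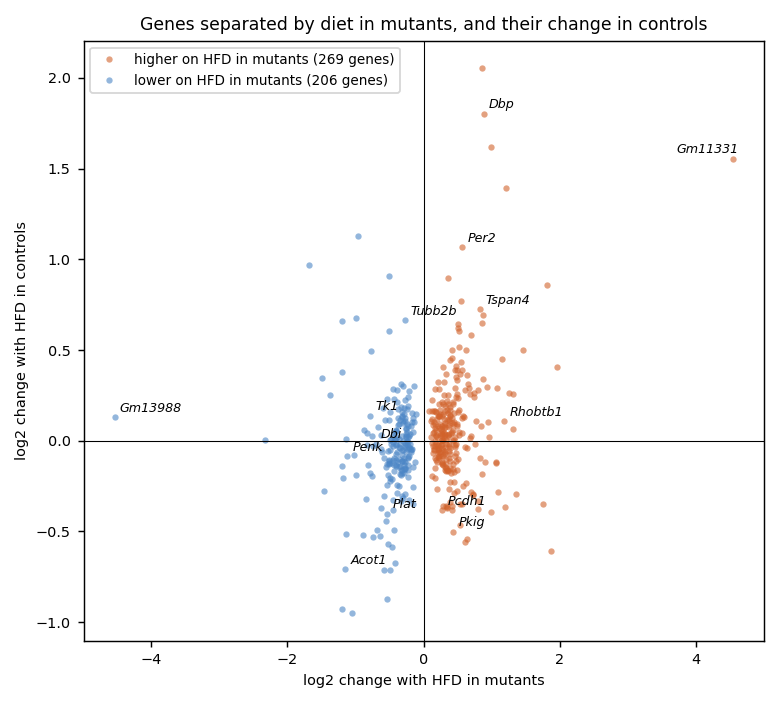
Log2 change with HFD in mutants (x axis) and in controls (y axis), with 1 point for each of the 269 higher and 206 lower genes whose mutant groups did not overlap. The points split at 0 on the x axis because of how they were selected, and on the y axis most lie near 0. *Plat*, *Tspan4* and *Per2* had the same direction in both genotypes, *Pkig*, *Pcdh1* and *Tubb2b* opposite ones.

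The largest fitted changes of all tested genes belonged to a pair of pseudogenes, chosen here after their values were seen. *Gm11331* was listed at 0 in all 4 mutants on SD and at 10.5, 27.5, 9.11 and 5.86 on HFD. *Gm13988* was 16.1, 4.03, 11.2 and 20.4 on SD and listed at 0 in all 4 mutants on HFD. Both share sequence with each other and with *Gm14219*, and *Gm11331* and *Gm14219* held the same value above 0 in 8 of the 16 mice. The sum of the 3 pseudogenes was 16.1, 20.1, 19.2 and 20.4 on SD and 21.03, 27.5, 18.2 and 11.7 on HFD, so the sum overlapped between the diets. Their separate values are uncertain.

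In bulk RNA, fewer cells of a type and less RNA per cell cannot be told apart, which bears on each hormone and marker gene. Of 7 pituitary hormone genes, 0 were separated between the diets, 6 had lower and 1 had higher mean log2 values on HFD, and their median change was -0.52, or -0.23 without P357. *Lhb*, the beta subunit of luteinizing hormone, was 1198, 898.6, 733.9 and 584.3 on SD and 283.3 to 360.2 in 3 mice on HFD and 674.6 in the other, P388. P388 lay above P384 on SD, and the other 3 mice on HFD lay below all 4 on SD. HFD differed from SD by -1.06 on the log2 scale (SE 0.31, unadjusted p = 0.00352, limma adjusted p = 0.813), and the exact permutation test gave a two-sided p of 0.0571. Without P357 it was -0.88, and among mice from P381 on it was -0.56. Controls overlapped fully, at 805.6 to 1158 on SD and 473.4 to 1343 on HFD. *Lhb* overlaps *Ruvbl2* on the opposite strand.

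*Gh*, the growth hormone gene, was 95122, 60514, 72459 and 54094 on SD and 46865, 36933, 30462 and 57695 on HFD. P388 was again the highest mouse on HFD and lay above P384. This gave a log2 change of -0.72 (SE 0.33, limma adjusted p = 0.813), and -0.57 without P357 and -0.46 in controls. *Tshb*, the beta subunit of thyrotropin, was 236.8 to 697.2 on SD, highest in P357, and 212.0 to 383.7 on HFD. Its change of -0.52 went to -0.23 without P357 and to 0.04 among mice from P381 on. *Fshb* ran from 28.7 to 55.97 on SD and from 19.6 to 40.7 on HFD (change -0.53), and *Cga*, the common alpha subunit, from 4984 to 9479 and from 3968 to 7147 (change -0.29). *Prl* was 303165 to 496854 on SD and 294311 to 423831 on HFD, with a change of -0.05 (SE 0.51). It took 31.1% to 39.4% of the summed signal of each mutant library, and 37.2% in P357.

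*Pomc* was 1654, 15105, 13654 and 12270 on SD and 21999, 21792, 14118 and 19696 on HFD. P357 held less than any other mutant, and P387 on HFD lay below P381 on SD. A log2 change of 1.25 was fitted (SE 0.69, limma adjusted p = 0.813) with P357 and 0.49 without it.

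*Penk*, the precursor gene of the enkephalins, was 463.3, 295.5, 357.5 and 307.6 on SD and 217.5, 137.1, 103.0 and 217.9 on HFD, each mouse on HFD below each on SD. A log2 change of -1.12 was fitted (SE 0.33, unadjusted p = 0.00372, limma adjusted p = 0.813). Its change without P357 was -0.99, and among mice from P381 on it was -1.09. In controls, at 38.1 to 130.3 over both diets, it was -0.09, or -0.47 without P392. The interaction of -1.03 had an unadjusted p of 0.0413 with all mice, 0.0855 without P357 and 0.0785 without P392 (limma). *Vip*, another secreted peptide gene, was 37.8, 9.15, 24.8 and 24.7 on SD and 17.0, 7.11, 6.60 and 13.7 on HFD (change -1.03), with overlap through P381. Of 12 tested neuropeptide precursor genes, *Penk* alone was separated. *Nmu*, of the same list, had a similar change of -1.175 with overlap (unadjusted p = 0.00502, limma), and -0.09 in controls. Over the list 5 changes were positive and 7 negative, or 7 and 5 without P357.

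*Esr1*, the deleted gene, was 10.02, 22.2, 20.5 and 21.8 on SD and 33.4, 27.9, 33.0 and 21.6 on HFD. Its value covers all its exons, not the excised part alone. On HFD 3 of 4 mutants lay above all mutants on SD, and P388 lay among them. On the log2 scale the change was 0.67 (SE 0.25, unadjusted p = 0.0174, limma adjusted p = 0.813), 0.40 without P357 and 0.31 among mice from P381 on. Controls were 29.0 to 46.7 on SD and 23.6 to 43.4 on HFD. The oestrogen-induced genes *Pgr* (10.7 to 17.0 on SD, 16.4 to 22.2 on HFD) and *Greb1* (103.7 to 110.8 and 99.9 to 117.8) overlapped between the diets, as did *Gal* (1849 to 3910 and 1819 to 2579). Of 7 such genes 0 were separated, with a median change of 0.01. *Ccn3*, a secreted matricellular gene, was 0.55 to 2.52 on SD, lowest in P357, and 1.37 to 2.97 on HFD, with a change of 0.34 that became 0.04 without P357. *Fst*, the activin-binding follistatin gene, was 0.0765 to 0.314 on SD and 0.189 to 1.23 on HFD, too low to pass the filter, and was not tested. *Parm1* (0.32) and *Sphkap* (0.40) went to 0.07 and 0.14 without P357.

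**Figure D3:**
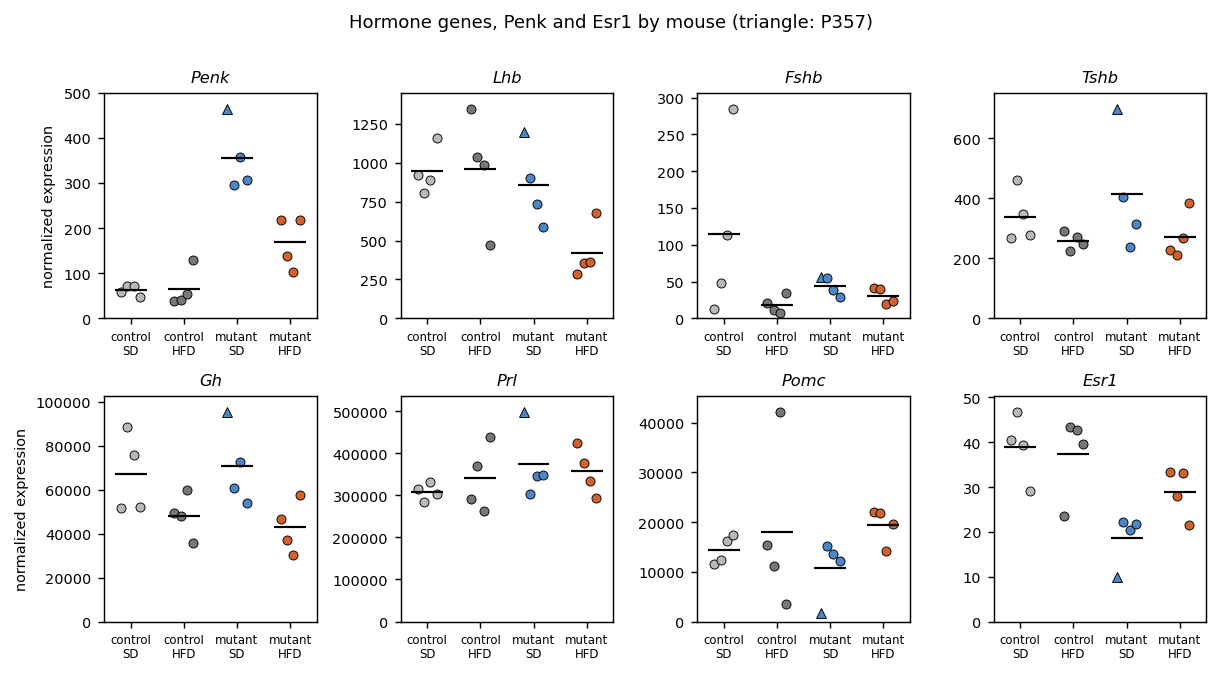
Normalized expression (y axes from 0) of *Penk*, 6 hormone genes and *Esr1* in each mouse by genotype and diet, with 1 point per mouse, a triangle for P357 and a line at the group mean. *Penk* in mutants lies at 103.0 to 217.9 on HFD and 295.5 to 463.3 on SD, and the hormone genes overlap. P357, the library with the largest summed signal, holds the highest *Lhb*, *Tshb*, *Gh* and *Prl* and the lowest *Pomc* and *Esr1* of the 4 mutants on SD.

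Gene lists were read against the 1.88% and 1.44% of all tested genes that were separated upward and downward. The median change over all tested genes was 0.02, and 0.00 without P357. Of all tested genes, 7775 had a positive and 6570 a negative change, or 7295 and 7050 without P357. Of the 36 lists, those of lymphocyte, adipocyte and granulocyte markers had under 4 tested genes.

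In the circadian clock, CLOCK or NPAS2 with BMAL1 (*Arntl*) drives *Per*, *Cry*, *Nr1d1*, *Nr1d2* and *Dbp*, whose products feed back on it. Of 19 tested clock genes, 4 were higher on HFD with no overlap (*Dbp*, *Per2*, *Per3* and *Nr1d2*) and 1 was lower (*Npas2*), shares of 21.1% and 5.26%. The counts were 4 and 1 without P357 as well, and the list median was 0.18 with P357, 0.10 without it and 0.32 in controls. *Dbp*, an output transcription factor of the clock, was 25.9, 33.3, 28.9 and 23.6 on SD and 42.5, 53.0, 54.6 and 56.9 on HFD. Its change came to 0.88 (SE 0.37, unadjusted p = 0.0301, limma adjusted p = 0.813), and every mouse on HFD lay above every mouse on SD. *Per2* was 6.51, 5.33, 4.98 and 5.60 on SD and 8.21, 10.1, 6.84 and 9.13 on HFD (change 0.56). *Per3* was 15.8, 13.1, 13.6 and 14.1 on SD and 20.7, 21.8, 18.2 and 23.5 on HFD (change 0.56). Both period genes, which encode repressors of CLOCK and BMAL1, were separated between the diets. *Nr1d2*, the gene of the repressor REV-ERB beta, was 31.7 to 36.5 on SD and 46.0 to 55.5 on HFD (change 0.51).

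*Npas2*, the partner of BMAL1 on the activating side, was 2.54, 1.46, 2.94 and 3.31 on SD and 0.79, 1.203, 1.03 and 0.32 on HFD. The fitted change was -1.20 (SE 0.41, unadjusted p = 0.00938, limma adjusted p = 0.813). *Arntl* was 15.7 to 20.3 on SD and 14.2 to 16.3 on HFD (change -0.19), and *Nr1d1* 34.3 to 46.3 and 41.7 to 59.1 (change 0.45), both with overlap. In controls the changes of *Dbp*, *Per2*, *Per3*, *Nr1d2* and *Npas2* had the same signs, at 1.80, 1.07, 0.77, 0.62 and -0.93. The interaction of these 5 genes had unadjusted p of 0.0954 to 0.706 (limma). *Ciart*, another repressor of the clock, was 2.71 to 7.29 on SD and 3.27 to 5.36 on HFD in mutants (change 0.06), against a change of 2.349 in controls (interaction unadjusted p = 0.000365, adjusted p = 0.846 from limma). The time of day of tissue collection is not given in the sources used here, and its part in these values was not tested.

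The promoter of *Per3* is shown because it holds the letters of the D-box, the element that DBP binds, and both genes were higher on HFD. It was taken from RefSeq (GRCm38.p6, chr4:151044616-151044915, minus strand), from 250 bases before to 50 after the start. Capitals mark the letters TTANGTAA on either strand.
Per3: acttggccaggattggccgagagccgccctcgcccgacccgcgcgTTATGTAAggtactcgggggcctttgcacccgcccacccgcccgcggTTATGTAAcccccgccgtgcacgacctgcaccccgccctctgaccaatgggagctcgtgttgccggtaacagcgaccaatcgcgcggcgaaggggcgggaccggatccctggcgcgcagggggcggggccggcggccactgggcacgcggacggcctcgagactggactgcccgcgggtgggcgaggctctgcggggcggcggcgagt
This window held the D-box letters 2 times, and 2.32% of 32851 mouse promoters of the same length held them at least once. Of the 5 separated clock genes, 4 had an entry, and *Dbp*, *Nr1d2* and *Npas2* held neither the D-box nor the E-box letters CACGTG, which 7.15% of promoters held. A match describes these letters only.

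**Figure D4:**
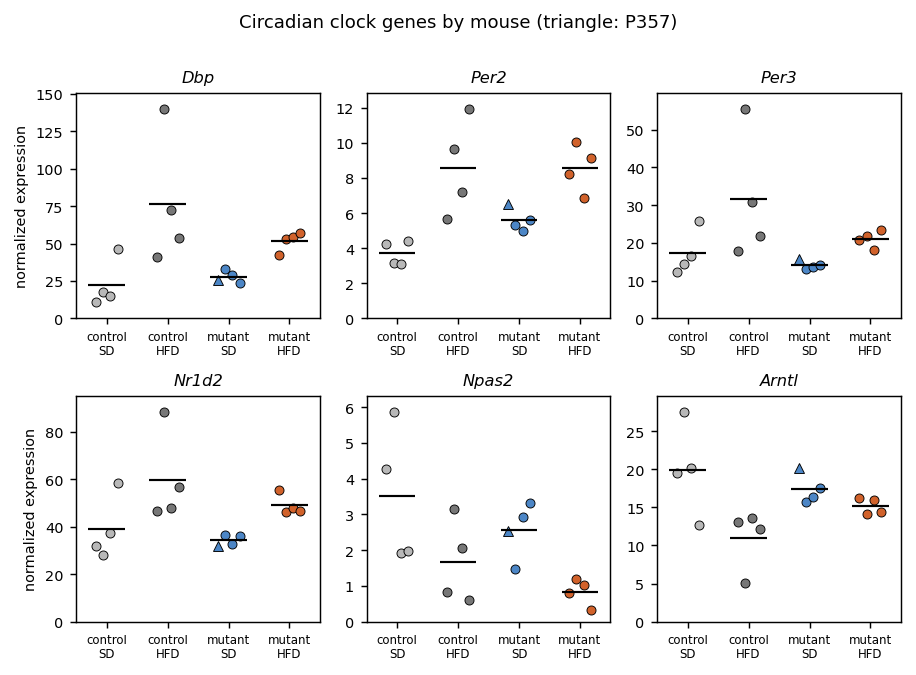
Normalized expression (y axes from 0) of 6 clock genes in each mouse by genotype and diet, with 1 point per mouse, a triangle for P357 and a line at the group mean. In mutants *Dbp*, *Per2*, *Per3* and *Nr1d2* lie entirely higher and *Npas2* entirely lower on HFD, and *Arntl* overlaps. Controls spread more widely than mutants in *Dbp*, from 11.2 to 139.8.

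Among cell type markers, those of the intermediate lobe held the most separated genes. Of 5 melanotroph markers, 3 were separated upward, namely *Pcsk2*, *Pax7* and *Oacyl*, and the median change was 1.31 with P357 and 0.57 without it. *Pcsk2*, the prohormone convertase that cleaves the *Pomc* product further in melanotrophs, was 11.0, 70.7, 59.3 and 67.7 on SD and 137.6, 113.9, 84.4 and 93.95 on HFD. The change was 1.31 (SE 0.51, unadjusted p = 0.0197, limma), and 0.68 without P357 (unadjusted p = 0.0798, limma). *Pcsk2* shares stretches of sequence with 62 genes. *Pax7*, the melanotroph selector gene, was 0.13, 6.32, 4.89 and 4.58 on SD and 8.32, 9.78, 6.91 and 7.19 on HFD. *Oacyl* was 1.61, 54.2, 38.2 and 28.1 on SD and 62.9, 76.3, 58.3 and 57.8 on HFD. In each of these genes the 4 mice on HFD lay above the 3 mice on SD other than P357 as well. In controls the diets overlapped, and the changes of *Pcsk2*, *Pax7* and *Oacyl* were 0.07, -0.29 and -0.35 with all 8 mice and 0.45, 0.28 and 0.38 without P392. Without P357 the changes in mutants were 0.68, 0.57 and 0.70, and the interaction with all mice had unadjusted p of 0.087 to 0.101 (limma), so a difference between genotypes was not shown. The mean log2 value of the list was 6.39 to 6.67 in the 3 mice on SD other than P357 and 6.76 to 7.13 on HFD.

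Of 8 posterior lobe markers, 0 were separated, and their median change of 0.42 became 0.07 without P357, in which *Avp* was listed at 0 and *Oxt* at 0.79. The mean log2 value of the list was 0.33 in P357, 2.21 to 2.54 in the other mice on SD and 2.02 to 2.52 on HFD. For the anterior cells, 0 of 6 lactotroph, 0 of 6 gonadotroph and 0 of 5 thyrotroph markers were separated. *Drd2*, the dopamine receptor that restrains lactotrophs, was 12.4, 42.6, 33.7 and 43.3 on SD and 47.7, 51.7, 38.2 and 44.0 on HFD, and its change of 0.59 became 0.19 without P357. *Gnrhr* and *Nr5a1*, which mark gonadotrophs beside *Lhb*, had changes of 0.16 and -0.03, and -0.25 and 0.02 without P357. Of 5 tested somatotroph markers, *Dlk1* was lower with no overlap, at 1013 to 1636 on SD and 813.1 to 950.0 on HFD (change -0.43, and -0.28 without P357). Of 4 tested corticotroph markers, *Crhr1*, the receptor of corticotropin-releasing hormone, was lower, at 4.03 to 4.90 on SD and 2.79 to 3.75 on HFD (change -0.39).

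Markers of other cells gave few separated genes. *Plvap*, of fenestrated endothelium, was 91.7 to 143.1 on SD, highest in P357, against 80.8 to 89.1 on HFD (change -0.30), and it was the 1 separated gene of 9 endothelial markers. Of 8 tested stem and folliculostellate markers, 7 pericyte and fibroblast markers and 10 macrophage markers, 0 were separated, with medians of -0.19, 0.33 and 0.04. The fibroblast median was 0.16 without P357. All 5 erythroid markers had negative changes, with a median of -0.66 and -0.39 without P357, and none was separated. *S100a8*, of granulocytes, was 25.0 in P339 and 0.29 to 2.79 in the other 7 mutants. *Trac*, of T cells, was 9.35 in P384 and 0 to 1.95 in the others, and antigen presentation genes had mean log2 values of 6.14 in P384 and 6.02 in P341, against at most 4.83 in the other mutants, with 13 of 15 changes negative and a median of -0.12. The only tested adipocyte marker, *Fabp4*, had 13.8 to 29.6 on SD and 14.2 to 19.95 on HFD.

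Fatty acid oxidation and PPAR target genes had a median of -0.06, with *Acot1* as the 1 separated gene of 22, while *Cpt1a* (17.8 to 35.8 on SD, 31.5 to 35.3 on HFD), *Pdk4* (2.43 to 8.47 and 3.21 to 5.47) and *Angptl4* (1.46 to 4.64 and 1.40 to 3.73) overlapped. Lipogenic genes had a median of 0.08 and -0.07 without P357, with *Thrsp* separated among 17 and *Fasn* at 35.1 to 45.1 on SD and 40.6 to 46.6 on HFD. Of 24 cholesterol genes, 0 were separated and the median was 0.00. Of 22 genes of leptin, insulin and JAK-STAT signalling, 0 were separated. Their median of 0.09 became -0.05 without P357, and genes with a positive change went from 17 of 22 to 6 of 22. *Lepr*, the leptin receptor, was 7.70, 2.19, 2.50 and 3.61 on SD and 5.91, 3.72, 10.9 and 2.33 on HFD, and *Socs3* was 14.6 to 28.3 and 12.9 to 36.1. *Cish*, a feedback gene of STAT5, was 10.1 to 32.7 on SD, highest in P357, and 6.98 to 11.99 on HFD (change -0.71, and -0.37 without P357).

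For the secretory pathway, 2 of 22 unfolded protein response genes lay higher on HFD with no overlap, the chaperone gene *Hsp90b1* and the transcription factor gene *Xbp1*. *Hsp90b1* was 361.0 to 469.4 on SD and 479.6 to 564.9 on HFD (change 0.23), and *Xbp1* was 217.9 to 229.7 and 230.8 to 240.5 (change 0.08). The median of the list was 0.04. Of 16 prohormone processing and granin genes, 14 had positive changes and *Pcsk2* was separated, with a median of 0.22 that became 0.06 without P357. Of 15 tested genes of the IGF and growth hormone axis, *Igf1* was higher, at 1.90 to 2.21 on SD and 2.352, 3.23, 6.68 and 2.36 on HFD (change 0.57, unadjusted p = 0.121, limma), with P387 well above the others.

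Ribosomal and respiratory chain genes had negative changes in most members. Of 84 cytosolic ribosomal protein genes, 73 had negative changes, or 68 without P357, with a median of -0.13 and -0.06 without P357. *Rps12* was the 1 separated gene, at 119.9 to 185.3 on SD and 85.3 to 119.9 on HFD, where P384 and P387 met. *Rps12* shares sequence with 29 other genes, and its value is uncertain. Of 77 nuclear-encoded respiratory chain genes, 63 had negative changes, or 52 without P357, with a median of -0.14 that became -0.05 without P357. *Ndufs8* was separated, at 65.6 to 119.0 on SD, highest in P357, against 59.8 to 64.1 on HFD. The medians in controls were 0.14 and 0.11. The 13 mitochondrially encoded genes had 13 negative changes with P357 and 2 without it, and their median went from -0.37 to 0.05. *mt-Nd1* was 2545 to 8569 on SD, highest in P357, against 2347 to 3261 on HFD.

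Of 13 glucocorticoid response genes, 0 were separated, 10 had negative changes, and the median was -0.24 and -0.30 without P357, with *Mt2* at 347.7 to 537.2 on SD and 276.2 to 418.3 on HFD. Of 20 tested immediate early genes, 0 were separated, with a median of -0.09 that became -0.28 without P357. *Klf2* was 6.68 to 9.26 on SD and 3.89 to 6.83 on HFD (change -0.44). Of 21 tested interferon-stimulated genes and 14 tested activin, inhibin and follistatin genes, 0 were separated, with medians of -0.08 and 0.12. Of 33 tested collagen genes, *Col5a3* was separated, at 3.13 to 3.33 on SD and 2.07 to 2.44 on HFD (change -0.45), and the median was -0.04.

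**Figure D5:**
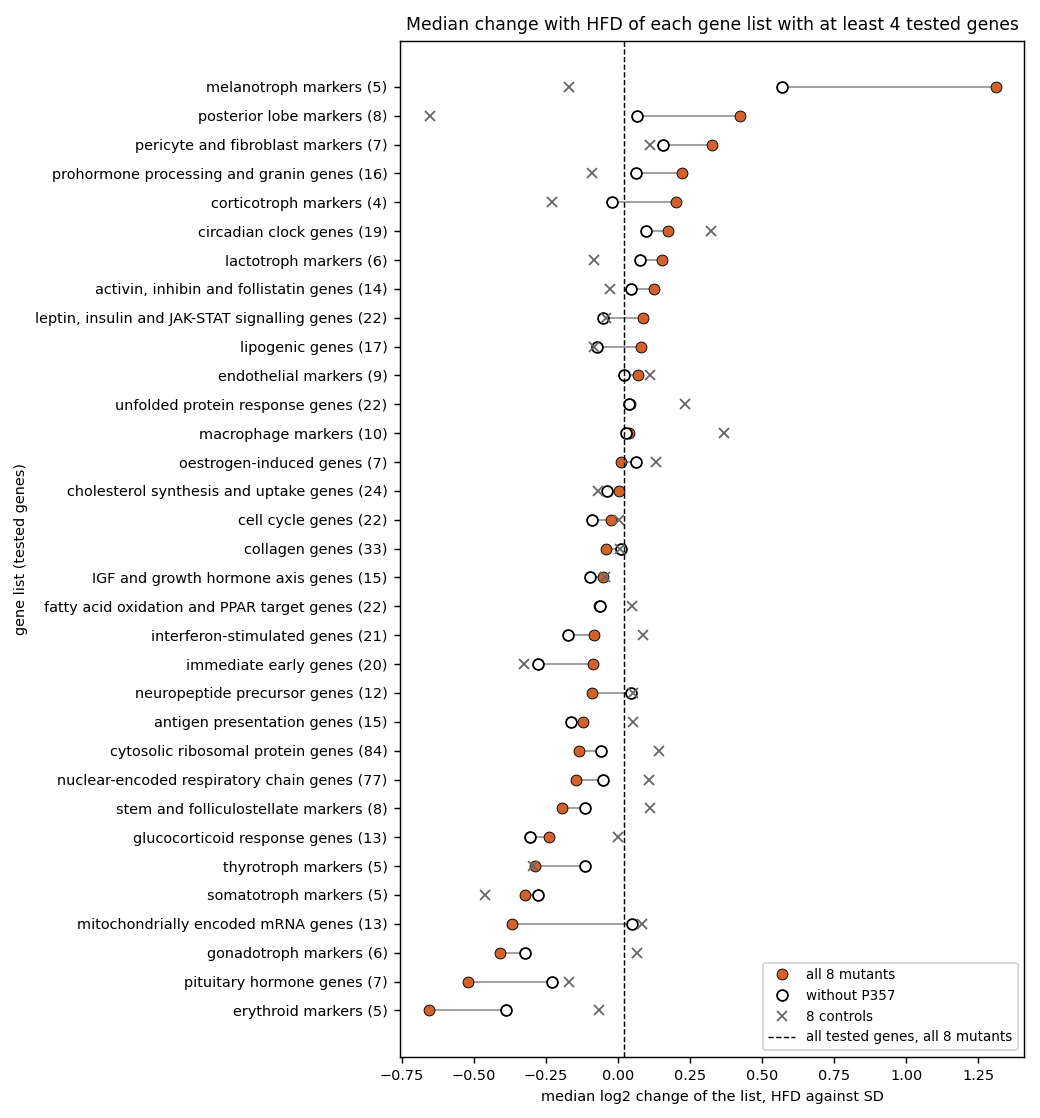
Median log2 change with HFD of each gene list with at least 4 tested genes (number in brackets), for all 8 mutants (filled circles), without P357 (open circles) and in the 8 controls (crosses), with a dashed line at the median of all tested genes in mutants. Most lists lie near 0, and the melanotroph list has the largest median shown, 1.31, which is 0.57 without P357.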

How the data were processed

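Pituitaries of 16 female mice were profiled by RNA-seq with 1 library per mouse, and the 4 groups were taken from the genotype and diet labels. For each gene the deposited file holds a normalized signal, which the authors made with kallisto and sleuth on mm10 (versions not given in the sources used here), and they are neither raw counts nor log values. The size of 1 read in each library was chosen to put the largest share of low values on steps of whole reads (tolerance 0.15). It was fitted together with a fragment length in genes with 1 transcript. The share was 85.4% to 95.5%, and as it was fitted it does not test the step. By this estimate these genes held 822121 to 1229809 reads per library. That depth limits low genes most, and it covers counting error only.

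A mean of 1 or more across the 16 mice kept 14345 of 17362 genes, which were tested by limma (version 3.58.1, R 4.3.3) on log2(value + 0.5), with 1 mean per group, eBayes with trend and Benjamini-Hochberg adjustment over all tested genes at 0.05. All 16 mice entered the fit and share 1 estimate of the spread. The interaction is the mutant change minus the control change. Groups were called separated where no values overlapped, and single genes had a two-sided exact permutation test over 70 arrangements, whose smallest p is 0.0286. Nothing in the labels places replicates in separate experiments beyond separate mice. No column belonged to a sample outside the series.

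Named genes were the study's genes of interest and the 7 hormone genes, any called gene, and the 12 genes per direction with the largest smaller absolute t with and without P357 among separated genes (mean of at least 5 in the higher group, no predicted genes, clones or pseudogenes). Up to 4 separated members per list, or else the member with the smallest p, and the 4 such genes with the largest interaction were added. Other list members named serve as background for their list. The comparison, the 36 lists and the tests were chosen with earlier results of these data known. Shared sequence means a BLAST (2.17.0) match between transcripts of at least 90% identity over 100 bases. For the comparison of diets in mutants, data of 14345 genes simulated with no change gave 0 calls. With 200 genes changed, 68.5% were recovered at a log2 change of 1 (6.80% of calls false) and 92.5% at 2 (3.65% false). The simulation drew each gene independently from a normal distribution and held no outlying library such as P357. These shares may therefore not hold for the real mice.

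Alternatives were filters at a mean of 0.1, of 5 and none, pseudocounts of 0.1 and 1, median ratio scaling, quantile normalization, eBayes without trend, array weights, a fit of the 8 mutants alone, animal-number range or a lobe marker score as a covariate, mice from P381 on alone, and leaving out each mouse.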

Additional observations from a re-analysis of the deposited data

Results flagged for a closer look

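In 24 of 220 groups of 4 mutants searched, 1 mouse lay far from the other 3, and 15 of the 24 belong to P357 on SD. Chance gives about 1 in 20 for independent groups of normal values. The groups searched share genes and were partly chosen from these data, so that rate is only a rough guide. P357 had low values of *Esr1* (10.02, others 20.53 to 22.16), *Etv1* (5.698, others 14.06 to 15.24), *Pax7* (0.1319, others 4.577 to 6.323), *Pcsk2* (10.99, others 59.27 to 70.73), *Pomc* (1654, others 12270 to 15105), *Smad2* (6.906, others 9.537 to 10.13) and *Sphkap* (21.5, others 44.75 to 44.84). It had high values of *Ndufs8* (119, others 65.56 to 69.61), *Plvap* (143.1, others 91.72 to 98.24) and *mt-Nd1* (8569, others 2545 to 2933). Its mean log2 values were low for markers of corticotrophs (4.265, others 5.380 to 5.567), melanotrophs (3.690, others 6.387 to 6.668), posterior lobe (0.332, others 2.214 to 2.536) and pericytes and fibroblasts (3.669, others 4.331 to 4.438), and high for mitochondrially encoded genes (12.842, others 11.136 to 11.274).

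P384 on SD had high *Trac* (9.349, others 0.5635 to 0.94), antigen presentation genes (mean log2 value 6.138, others 4.619 to 4.831) and cell cycle genes (2.182, others 1.745 to 1.799). P341 on HFD had high lymphocyte markers (2.022, others 0.163 to 0.420), antigen presentation genes (6.019, others 4.457 to 4.629) and *Zfp61* (20.64, others 18.45 to 18.79). P339 on HFD had low *Klf2* (3.886, others 6.243 to 6.828) and high oestrogen-induced genes (7.851, others 7.496 to 7.524), and P387 on HFD had low *Pcdh1* (17.77, others 19.43 to 19.64). With the lobe marker score as a covariate, 593 genes had an unadjusted p under 0.05 between the diets in mutants, against 717 without it (limma). The part that mitochondrial RNA or immune cells had in the results was not tested.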

How the results depend on the processing

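No gene was called between the diets in mutants, and the count became 1 with array weights (*Plat*, log2 change -0.48, adjusted p = 0.0148 from limma), 2 in a fit of the 8 mutants alone (*Gm11331* and *Gm13988*) and 0 to 1 when a mouse was left out, the 1 being *Gm11331* without P383, a control on SD. The interaction count of 0 became 1 with array weights and 0 to 1 without a mouse, and the control count of 0 became 5 with array weights and 0 to 6 without a mouse (6 without P383). Separated genes were 418 to 736 higher and 348 to 526 lower when a mutant was left out, the highest without P384 on SD, and 1273 and 1414 among mice from P381 on, since fewer mice separate more easily. Of 74 named genes tested, 65 kept their direction with each mouse left out and under each of the 13 alternatives that tested them (the filter at a mean of 5 left out 12). Among mice from P381 on, the sign turned for *Ccn3* (-0.23), *Cga* (0.23), *Cx3cr1* (-0.31), *Fabp4* (0.31), *Nkx2-1* (-0.0000), *Sphkap* (-0.0221) and *Tshb* (0.0424). It turned with array weights for *Ccn3* (-0.0102), *Fabp4* (0.20) and *Prl* (0.0734), and with the lobe score as a covariate for *Fabp4* (0.46), *Nkx2-1* (-0.0931) and *Prl* (0.15). Quantile normalization gave *Cga* 0.0056 and, as the top ranks are set equal, *Gh* 0.0000 and *Prl* 0.0000. With a mouse left out, *Fabp4* ran from -0.1353 to 0.2216 (above 0 without P339 or P357) and *Prl* from -0.1431 to 0.0945 (above 0 without P357 or P388). Where not stated, the cause was not tested. No paired analysis was possible because the labels give animal numbers and no replicate numbers shared between groups.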
